A study of Homo sapiens with 12 samples.

Results

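The carcinoembryonic antigen-related adhesion molecules (CEACAM proteins) were examined as 5 genes, CEACAM1, CEACAM5, CEACAM6, CEACAM7 and CEACAM19, of the 17687 named genes on the arrays. They were taken by symbol, and each was represented by 1 array feature. RNA from a pair of established colorectal cancer lines of human origin, DLD1 and HCT 116, had been hybridised to 12 single-colour arrays after a BRG1 siRNA (siBRG1) or a control siRNA (siControl). The groups were DLD1 siBRG1, DLD1 siControl, HCT 116 siBRG1 and HCT 116 siControl, with 3 arrays each. BRG1, the product of SMARCA4, drives SWI/SNF complexes that move nucleosomes using ATP. The sources used here state neither the time after transfection nor whether replicate arrays were separate cultures. The p-values therefore cover the spread between arrays, and that spread may be technical.

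CEACAM proteins are cell surface members of the immunoglobulin superfamily that bind each other within and between cells. CEACAM5, the carcinoembryonic antigen measured in serum as a tumour marker, CEACAM6 and CEACAM7 are held in the membrane by a glycosylphosphatidylinositol (GPI) anchor. CEACAM1 spans the membrane, and its long isoform carries inhibitory tyrosine motifs that recruit SHP phosphatases. In the normal colon these proteins sit on the apical surface of differentiated epithelium. CEACAM19 spans the membrane and is a less studied member of the family.

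No member passed the test for a change after siBRG1 in either line. The members were also at the low end of the arrays, where a deposited value cannot be told from background because the table holds no detection calls. The median of an array lay between 6.36 and 6.50 on the log2 scale. CEACAM1, CEACAM5, CEACAM7 and CEACAM19 lay below the median of their array on 12 of 12 arrays, and CEACAM6 on 10 of 12, the exceptions being DLD1 siControl replicates 1 and 2. Between 0.49 and 10.7% of an array's features were lower than CEACAM7, 6.15 to 35.7% were lower than CEACAM5, 13.3 to 39.4% than CEACAM1, 34.3 to 42.9% than CEACAM19 and 45.0 to 52.0% than CEACAM6. Features differ in how brightly their probes hybridise, so these shares do not order the genes by transcript amount.

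**Figure D1:**
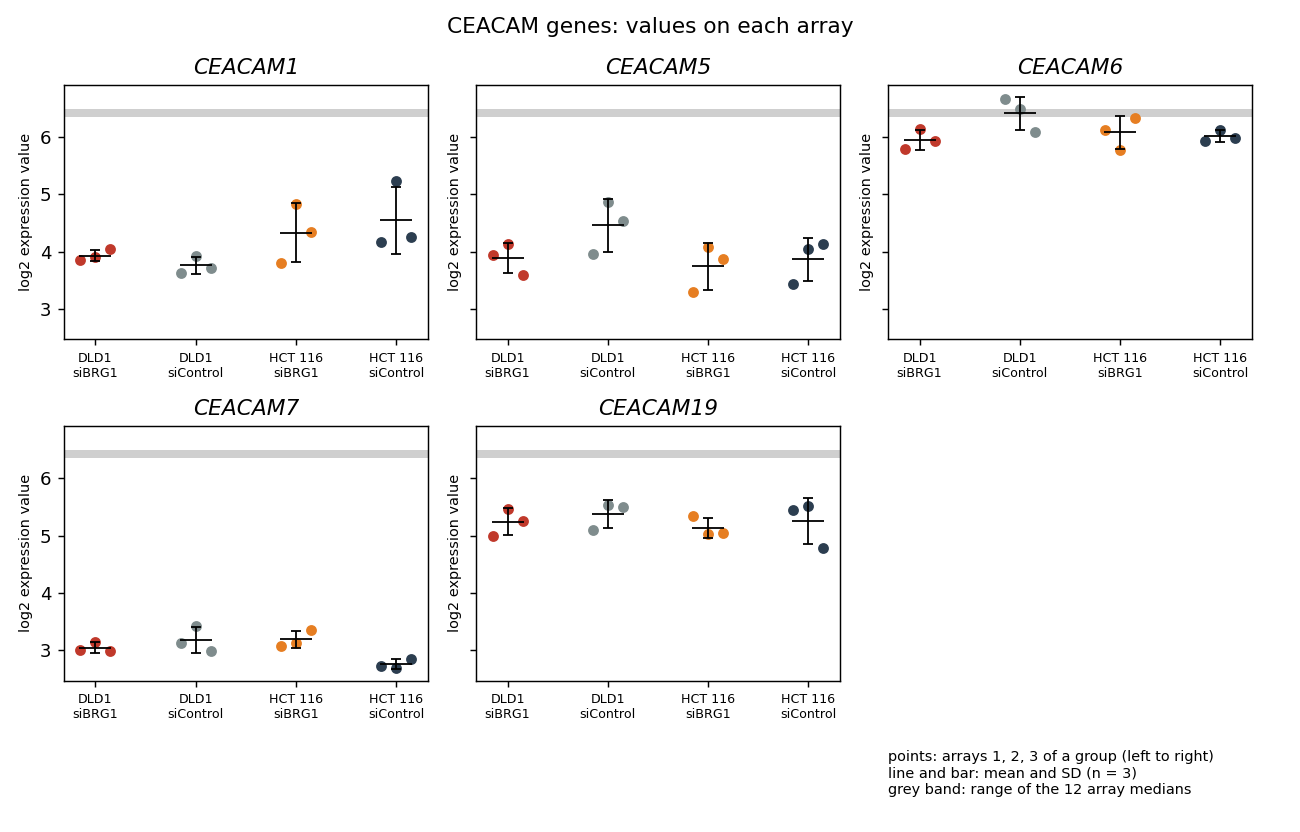
Values of the 5 CEACAM genes (log2 scale, y axis) on each array, by group (x axis). Points are arrays 1 to 3 of a group, the line and bar are the mean and SD (n = 3), and the grey band spans the 12 array medians, from 6.36 to 6.50. CEACAM7 stays between 2.69 and 3.42 and CEACAM6 between 5.78 and 6.66.

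The start regions of 4 members are printed to show how alike these neighbouring genes are where transcription begins. They are the RefSeq windows (build GRCh38.p14) from 250 bases before to 50 bases after the gene start, written 5′ to 3′ on the gene's strand. Capitals mark a match to an E-box (CACGTG), a GC box (GGGCGG, or CCGCCC on the other strand) or a TCF motif (CTTTGA, or TCAAAG), each searched on both strands. CEACAM19 is named only.
CEACAM5, chr19:41708376-41708675, plus strand: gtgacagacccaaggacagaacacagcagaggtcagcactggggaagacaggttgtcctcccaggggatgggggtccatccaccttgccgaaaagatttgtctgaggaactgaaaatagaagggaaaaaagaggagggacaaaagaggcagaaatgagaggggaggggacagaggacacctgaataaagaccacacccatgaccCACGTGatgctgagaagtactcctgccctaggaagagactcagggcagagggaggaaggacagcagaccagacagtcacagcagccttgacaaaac
CEACAM6, chr19:41755280-41755579, plus strand: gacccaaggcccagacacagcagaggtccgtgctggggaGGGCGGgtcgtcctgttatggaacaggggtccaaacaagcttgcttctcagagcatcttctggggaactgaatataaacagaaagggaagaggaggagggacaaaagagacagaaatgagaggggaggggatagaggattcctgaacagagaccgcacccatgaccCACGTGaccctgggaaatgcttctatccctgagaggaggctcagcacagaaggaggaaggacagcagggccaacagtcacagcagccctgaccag
CEACAM7, chr19:41688221-41688520, minus strand: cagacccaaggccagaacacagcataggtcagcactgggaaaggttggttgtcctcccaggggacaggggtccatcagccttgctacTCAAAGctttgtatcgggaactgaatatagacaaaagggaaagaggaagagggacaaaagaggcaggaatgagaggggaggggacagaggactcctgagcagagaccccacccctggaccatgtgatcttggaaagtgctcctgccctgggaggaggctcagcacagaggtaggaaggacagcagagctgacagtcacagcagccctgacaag
CEACAM1, chr19:42528432-42528731, minus strand: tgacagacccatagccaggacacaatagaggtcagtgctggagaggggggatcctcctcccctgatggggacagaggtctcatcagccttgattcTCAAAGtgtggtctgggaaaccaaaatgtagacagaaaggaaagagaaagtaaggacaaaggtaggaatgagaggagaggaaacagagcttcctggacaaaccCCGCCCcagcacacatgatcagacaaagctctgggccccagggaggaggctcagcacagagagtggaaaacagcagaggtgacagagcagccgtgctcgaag

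Aligned end to end, the CEACAM7 window was identical to that of CEACAM5 in 81.4% of alignment columns and to that of CEACAM6 in 80.5%. CEACAM5 and CEACAM6 shared 74.7%, and CEACAM1 shared 65.6% with CEACAM5, 68.2% with CEACAM6 and 71.2% with CEACAM7. The E-box, a sequence recognised by basic helix-loop-helix factors, stood at position -46 of CEACAM5 and -45 of CEACAM6, counted from the gene start. It was in 7.26% of the 35116 start windows in the RefSeq table. The GC box was found in CEACAM6 and CEACAM1 (in 45% of all windows) and the TCF motif in CEACAM7 and CEACAM1 (in 12.9%). The AP-1 motif TGANTCA, in 7.71% of all windows, was found in none of the 4. These matches describe the letters of the windows and say nothing of binding. The windows lie mostly before the transcripts, and whether the array features of these related genes take up each other's transcripts was not tested.

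The siRNA target was lowered on every siBRG1 array. SMARCA4 had 6.29, 6.55 and 6.31 in DLD1 siBRG1 against 10.31, 9.95 and 10.29 in DLD1 siControl, and 6.78, 6.39 and 7.03 in HCT 116 siBRG1 against 10.12, 10.15 and 9.59 in HCT 116 siControl (log2). EPCAM, KRT8, KRT18, KRT19, CDH1 and CDX2, 6 of 10 markers of colon epithelium, lay above the median on all 12 arrays. VIL1, CDX1 and LGALS4 lay below it on all of them, and CDH17 below it on 6. All 7 measured granulocyte markers lay below the median on all 12 arrays, as did 4 of 5 lymphocyte, 3 of 4 endothelial, 4 of 5 fibroblast and 1 of 4 macrophage markers. Of the others, CD79A and COL1A2 lay above it on all 12 arrays, VWF below it on 10, CSF1R on 11, CD68 on 9 and CD14 on 7. CD68 averaged 7.05 in HCT 116 siBRG1 and 5.76 in HCT 116 siControl, and its part in the values below was not tested. HCT 116 siControl replicate 1 stood furthest from its group, with a root mean square deviation of 0.320 log2 over all genes against 0.227 to 0.285 for the other 11 arrays.

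In DLD1, CEACAM5 and CEACAM6 had lower means after siBRG1, and neither passed. CEACAM5 had 3.94, 4.13 and 3.60 in DLD1 siBRG1 against 3.96, 4.87 and 4.54 in DLD1 siControl (log2 values). The groups overlapped through siControl replicate 1, which lay with the siBRG1 arrays. The mean was 3.89 ± 0.27 in DLD1 siBRG1 and 4.46 ± 0.46 in DLD1 siControl (SD, n = 3 each), a log2 change of -0.57 with a 95% interval from -1.16 to 0.02 (limma adjusted p = 0.496). CEACAM6 had 5.80, 6.14 and 5.93 in DLD1 siBRG1 against 6.66, 6.49 and 6.09 in DLD1 siControl. One siControl array, replicate 3, was lower than the highest siBRG1 array, so these groups overlapped too. The CEACAM6 change was -0.46 (95% interval -0.89 to -0.03, limma adjusted p = 0.440). In these bulk samples fewer cells with a transcript and less of it per cell cannot be told apart.

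The other 3 members had smaller differences in DLD1. CEACAM1, the inhibitory receptor, had 3.86, 3.91 and 4.04 in DLD1 siBRG1 against 3.63, 3.93 and 3.72 in DLD1 siControl, a change of 0.17 (95% interval -0.43 to 0.78, limma adjusted p = 0.917). CEACAM7 had 3.0, 3.15 and 2.98 in DLD1 siBRG1 against 3.13, 3.42 and 2.99 in DLD1 siControl, a change of -0.14 (-0.51 to 0.23, limma adjusted p = 0.872). The lowest arrays of both groups of CEACAM7 were nearly equal, and siControl replicate 2 was the highest. CEACAM19 had 5.0, 5.47 and 5.25 in DLD1 siBRG1 against 5.09, 5.54 and 5.50 in DLD1 siControl, a change of -0.14 (-0.62 to 0.34, limma adjusted p = 0.915).

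By this test 0 of 5 members passed in DLD1 by limma, against 0.198% of all genes, and 1 of 5, CEACAM6, had an unadjusted p under 0.05, against 10.5% of all genes. Same-numbered DLD1 arrays deviated together and were taken as pairs, a choice made from these same arrays and not from the labels. CEACAM5, CEACAM6, CEACAM7 and CEACAM19 were lower in siBRG1 in 3 of 3 pairs, and CEACAM1 in 1 of 3. Of all genes 18.4% were lower in 3 of 3 pairs, a share that leaves out genes higher in all pairs. Some of these pairs were nearly equal, siBRG1 against siControl being 3.94 against 3.96 for CEACAM5 replicate 1 and 2.98 against 2.99 for CEACAM7 replicate 3. With the replicate number as a block in limma, again 0 of 5 passed, and CEACAM5 (unadjusted p = 0.0145, adjusted p = 0.183) and CEACAM6 (unadjusted p = 0.0410, adjusted p = 0.293) had an unadjusted p under 0.05, against 15.5% of all genes. The blocked limma unadjusted p was 0.358 for CEACAM7, 0.435 for CEACAM19 and 0.307 for CEACAM1. In 0 of 5 members did the DLD1 groups separate fully, which they did in 15.5% of all genes. The median change of the members was -0.14, beside 0.01 for all genes. The unpaired intervals reach from -1.16 for CEACAM5 to 0.78 for CEACAM1, and changes within a gene's own interval are not excluded. With 1 array left out, the CEACAM5 change lay between -0.82 (without DLD1 siControl replicate 1) and -0.36 (without DLD1 siControl replicate 2), CEACAM6 between -0.62 and -0.33, CEACAM7 between -0.23 and -0.018, CEACAM19 between -0.28 and -0.019 and CEACAM1 between 0.11 and 0.26.

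In HCT 116, CEACAM7 was the member whose groups did not overlap. It had 3.08, 3.13 and 3.36 in HCT 116 siBRG1 against 2.73, 2.69 and 2.85 in HCT 116 siControl (log2 values). All siBRG1 arrays were higher, with means of 3.19 ± 0.15 in HCT 116 siBRG1 and 2.76 ± 0.09 in HCT 116 siControl (SD, n = 3 each). The change of 0.43 (95% interval 0.07 to 0.80) did not pass (limma adjusted p = 0.159), nor did it without HCT 116 siControl replicate 1. Separation upward was found in 11.9% of all genes in this comparison, a share that leaves out separation downward. Only 0.49 to 1.64% of features lay below CEACAM7 on the HCT 116 siControl arrays, and 3.31 to 8.01% on the HCT 116 siBRG1 arrays.

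The HCT 116 arrays of CEACAM1 were widely scattered. It had 3.81, 4.84 and 4.34 in HCT 116 siBRG1 against 4.17, 5.23 and 4.26 in HCT 116 siControl. Replicate 2 was the highest array of both groups, and the groups overlapped, with a change of -0.22 (95% interval -0.83 to 0.38, limma adjusted p = 0.743). CEACAM5 had 3.29, 4.08 and 3.87 in HCT 116 siBRG1 against 3.44, 4.04 and 4.13 in HCT 116 siControl, a change of -0.12 (-0.71 to 0.46, limma adjusted p = 0.867). Replicate 1 was the lowest array of both groups for CEACAM5.

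CEACAM6 had 6.12, 5.78 and 6.34 in HCT 116 siBRG1 against 5.94, 6.13 and 5.98 in HCT 116 siControl, a change of 0.06 (95% interval -0.37 to 0.49, limma adjusted p = 0.913). The siControl arrays lay inside the range of the siBRG1 arrays. CEACAM19 had 5.34, 5.02 and 5.04 in HCT 116 siBRG1 against 5.45, 5.51 and 4.79 in HCT 116 siControl, a change of -0.12 (-0.60 to 0.35, limma adjusted p = 0.833). In HCT 116, 0 of 5 members passed by limma, against 6.95% of all genes, and CEACAM7 alone had an unadjusted p under 0.05, against 20.4% of all genes. The median change of the members was -0.12, beside -0.01 for all genes.

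**Figure D2:**
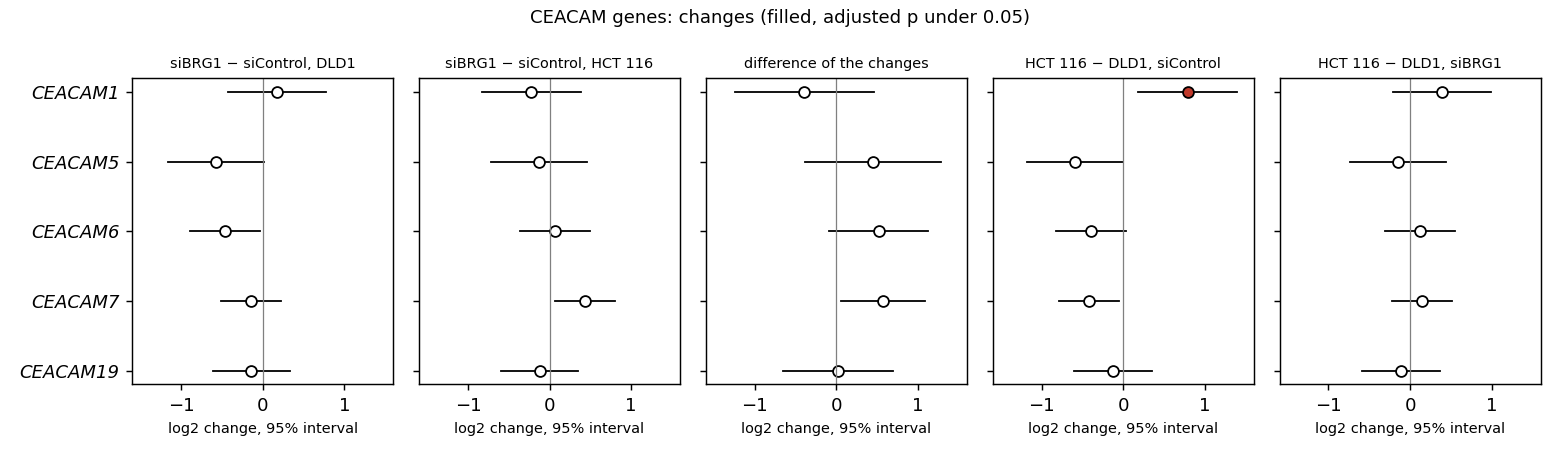
Log2 change of each CEACAM gene (rows) with its 95% interval (x axis) in 5 comparisons (panels) from the limma fit over 12 arrays. A filled point has an adjusted p under 0.05. CEACAM1 between the control lines, at 0.79, is the filled point, and the others are open.

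The changes of the lines were then set against each other, as the HCT 116 change minus the DLD1 change. CEACAM7 had a difference of 0.57 (95% interval 0.05 to 1.09, limma adjusted p = 0.487), CEACAM6 of 0.52 (-0.09 to 1.13, adjusted p = 0.661) and CEACAM5 of 0.45 (-0.39 to 1.28, adjusted p = 0.850). CEACAM1 differed by -0.40 (-1.25 to 0.46) and CEACAM19 by 0.02 (-0.66 to 0.69). None of the 5 passed in limma, where 0.334% of all genes did, and CEACAM7 had an unadjusted p under 0.05, as did 8.99% of all genes. The 3 GPI-anchored members had positive differences, and these data do not show that any of them responded differently in the 2 lines.

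Between the control lines CEACAM1 was the member called, narrowly. Its mean was 4.55 ± 0.59 in HCT 116 siControl and 3.76 ± 0.16 in DLD1 siControl (SD, n = 3 each), a log2 difference of 0.79 with a 95% interval from 0.19 to 1.39. All HCT 116 siControl arrays were above all DLD1 siControl arrays, and limma placed the gene just inside the threshold (adjusted p = 0.0498). Without HCT 116 siControl replicate 2, the array at 5.23, the difference was 0.45 (limma adjusted p = 0.248). The call also ended without DLD1 siControl replicate 1 (0.73, adjusted p = 0.135), 2 (0.88, adjusted p = 0.0657) or 3 (0.77, adjusted p = 0.116), and without DLD1 siBRG1 replicate 1 (adjusted p = 0.0590), 2 (0.0620) or 3 (0.0622) or HCT 116 siBRG1 replicate 3 (0.0624), which enter only the estimate of the spread. It stood in the remaining 4 of 12 limma fits, HCT 116 siControl replicate 1 being left out in one of them (0.98, adjusted p = 0.0283). The CEACAM1 call also ended in limma with quantile normalisation (0.71, adjusted p = 0.0988), with arrays centred on their medians (0.74, adjusted p = 0.0651) and with only the 2 groups compared (adjusted p = 0.0622). In limma the call stood with array weights (1.02, adjusted p = 0.0089), the robust trended prior (0.0403) and averaged features (0.0498). It also stood with a replicate block shared over lines (0.0178), which was added after seeing the data. CEACAM1 was 1 of 5 members called, against 27.6% of all genes, and 3 of 5 had an unadjusted p under 0.05, against 36.2%. Of the 10 colon epithelium markers, 7 were lower in HCT 116 siControl by limma, against 14% of all genes. Their summed log2 level was 95.95 to 98.67 in HCT 116 siControl and 116.1 to 118.37 in DLD1 siControl, and the part of this shift in the CEACAM differences was not tested.

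CEACAM7, CEACAM5 and CEACAM6 had lower means in HCT 116 siControl than in DLD1 siControl and did not pass. CEACAM7 averaged 2.76 ± 0.09 in HCT 116 siControl and 3.18 ± 0.22 in DLD1 siControl (SD, n = 3 each), a difference of -0.42 (95% interval -0.79 to -0.05, limma adjusted p = 0.0862), and the HCT 116 arrays were all below the DLD1 arrays. Full separation in either direction, seen in CEACAM1 and CEACAM7, occurred in 40% of all genes between these lines. CEACAM5 differed by -0.59 (-1.18 to -0.0026, limma adjusted p = 0.136), CEACAM6 by -0.40 (-0.82 to 0.03, adjusted p = 0.176) and CEACAM19 by -0.13 (-0.60 to 0.35, adjusted p = 0.745). Without DLD1 siControl replicate 1 the CEACAM5 difference was -0.84 and passed (limma adjusted p = 0.0437).

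Between the knockdown lines, 0 of 5 members passed in limma, against 30.8% of all genes. No member had an unadjusted p under 0.05, against 38.7% of all genes. CEACAM1 differed by 0.40 (95% interval -0.21 to 1.0, limma adjusted p = 0.340), and the other 4 lay between -0.15 for CEACAM5 and 0.15 for CEACAM7. The comparisons of the lines use the same arrays as the comparisons of the siRNAs, so the low CEACAM7 values of HCT 116 siControl enter both.

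Ordered by group mean, CEACAM1 ran from HCT 116 siControl (4.55) through HCT 116 siBRG1 (4.33) and DLD1 siBRG1 (3.93) to DLD1 siControl (3.76). The upper 2 steps were smaller than the larger SD of the groups on either side, and the ranges overlapped at every step. CEACAM5 was highest in DLD1 siControl (4.46), 0.57 above DLD1 siBRG1, and the other 3 groups lay between 3.75 and 3.89 with steps inside their SD. CEACAM6 was likewise highest in DLD1 siControl (6.41), 0.33 above the next group, with the other 3 between 5.96 and 6.08. CEACAM7 stood apart at the bottom, in HCT 116 siControl (2.76), with a step of 0.28 to DLD1 siBRG1 and no overlap there. No neighbouring groups of CEACAM19, which ran from 5.38 to 5.13, differed by more than the larger SD.

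The members did not vary as one. Over the 12 arrays, Pearson's r was 0.52 between CEACAM7 and CEACAM6, 0.39 between CEACAM7 and CEACAM5 and 0.32 between CEACAM6 and CEACAM5. CEACAM1 had values between -0.36 and -0.03 with each of the other 4, and CEACAM19 between -0.06 and 0.22. With the mean of each line subtracted, CEACAM7 and CEACAM6 had r = 0.47 and CEACAM5 and CEACAM1 r = 0.39. These arrays share lines, siRNAs and normalisation, and most of the values lie low on the arrays, so the coefficients are descriptions.

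The genes with patterns most like a member's were also ranked by r over the 12 arrays. For CEACAM1 they were PKD1L2 (0.93), RIMS2 (0.92) and ITLN2 (0.90), and for CEACAM5 CDCA3 (0.93), PDCL (0.88) and SPCS3 (0.88). For CEACAM6 they were SLC4A10 (0.87), ZNF736 (0.82) and BLK (0.81), for CEACAM7 CSTF3 (0.88), SKIL (0.86) and TRIM50 (0.84), and for CEACAM19 TMEM234 (0.86), WDR62 (0.86) and TRMU (0.83). With each line's mean subtracted, CDCA3 (0.92) and SLC4A10 (0.88) again ranked first for CEACAM5 and CEACAM6, whereas CCDC89 (0.89), NPAS3 (0.89) and U2AF1L4 (0.88) ranked first for CEACAM1, CEACAM7 and CEACAM19. These coefficients are the highest found for each member and carry no test.

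The measured relatives of the members lay below the array medians. The 5 other CEACAM genes measured, CEACAM3 and CEACAM8 of granulocytes among them, lay below the median on all 12 arrays, as did the 10 pregnancy-specific glycoprotein (PSG) genes. None of these 15 genes passed after siBRG1 in either line by limma, against 0.198% of all genes in DLD1 and 6.95% in HCT 116. A limma unadjusted p under 0.05 in HCT 116 was found for 0 of the CEACAM genes and 1 of the PSG genes, against 20.4% of all genes. In HCT 116, CEACAM8 changed by 0.36 (95% interval -0.04 to 0.76) and CEACAM3 by 0.34 (-0.09 to 0.77), neither past the threshold. PSG genes are near-identical to each other, and their features may share signal.

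On chromosome 19, CEACAM7, CEACAM5 and CEACAM6 follow each other among the measured genes, with CEACAM1 and CEACAM19 further along in that order. Of 18 measured neighbours, up to 3 on each side of a member, none passed after siBRG1 in either line by limma. Of all genes, 0.198% passed in DLD1 and 6.95% in HCT 116. A limma unadjusted p under 0.05 was found for 1 neighbour in DLD1 and 2 in HCT 116, against 10.5% and 20.4% of all genes. The neighbours include CEACAM and PSG genes already counted above, and 13 of the 18 lay below the median on every array. BCAM, a laminin-binding adhesion molecule near CEACAM19, had a change of 0.78 in DLD1 (limma adjusted p = 0.255) and of -0.05 in HCT 116. PVR, the poliovirus receptor beside CEACAM19, had changes of -0.27 in DLD1 and 0.53 in HCT 116 (limma adjusted p = 0.703 and 0.114). Between the control lines 2 neighbours, DMAC2 (0.56) and CNFN (0.65), were higher and BCAM (-1.30) was lower in HCT 116 siControl, against 13.6% of all genes higher and 14% lower.

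Genes of proteins that bind or signal with CEACAM proteins changed in part in HCT 116. Of 19 measured partners, 2 fell and 1 rose there by limma (4.13% and 2.82% of all genes), with a median change of -0.14, and none passed in DLD1 (median 0.05). PTPN6, the phosphatase SHP-1 recruited by the inhibitory motifs of CEACAM1, had 8.08, 8.14 and 8.37 in HCT 116 siBRG1 against 8.77, 9.64 and 9.74 in HCT 116 siControl (log2 values). All siBRG1 arrays were lower, and the gene fell by 1.19 (SE 0.27, limma adjusted p = 0.0154). ITGA5, the alpha subunit of the fibronectin receptor, had 8.87, 8.69 and 8.54 in HCT 116 siBRG1 against 9.37, 9.59 and 9.73 in HCT 116 siControl and fell by 0.87 (SE 0.20, limma adjusted p = 0.0184). LGALS3, a galectin that binds CEACAM glycans, had 12.73, 12.68 and 12.78 in HCT 116 siBRG1 against 10.68, 12.14 and 11.88 in HCT 116 siControl and rose by 1.16 (SE 0.32, limma adjusted p = 0.0393).

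These calls did not stand in every fit that left out 1 array. In those fits the change lay between -1.50 and -1.01 for PTPN6, -0.96 and -0.78 for ITGA5 and 0.72 and 1.45 for LGALS3. HCT 116 calls over all genes fell from 1230 to 618 and 664 without HCT 116 siControl replicate 2 or 3. They fell to 675 and 640 without HCT 116 siBRG1 replicate 2 or 3. Without HCT 116 siControl replicate 1, the low array of LGALS3, its change was 0.72 (limma adjusted p = 0.104). LGALS3 also did not pass without HCT 116 siControl replicate 3 (adjusted p = 0.0554), without HCT 116 siBRG1 replicate 1 (0.0822), 2 (0.0939) or 3 (0.117), or without DLD1 siControl replicate 3 (0.0528), nor with array weights (0.0556), only the 2 groups compared (0.0819) or both HCT 116 arrays numbered 1 left out (0.162). PTPN6 did not pass without HCT 116 siControl replicate 2 (adjusted p = 0.0734) or 3 (0.0707) or HCT 116 siBRG1 replicate 2 (0.0561). ITGA5 did not pass without HCT 116 siControl replicate 2 (adjusted p = 0.0660) or 3 (0.0765) or HCT 116 siBRG1 replicate 2 (0.0593) or 3 (0.0803). In DLD1 PTPN6 had a change of 0.22, ITGA5 of 0.06 and LGALS3 of 0.58. The difference of the changes (HCT 116 change minus DLD1 change) did not pass for any of these genes (limma adjusted p = 0.175, 0.256 and 0.813). LYN, a kinase of the SRC family that phosphorylates CEACAM1, had the largest change of the list in DLD1, -0.81, and did not pass (limma adjusted p = 0.108), except with array weights (-0.87, adjusted p = 0.0443).

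**Figure D3:**
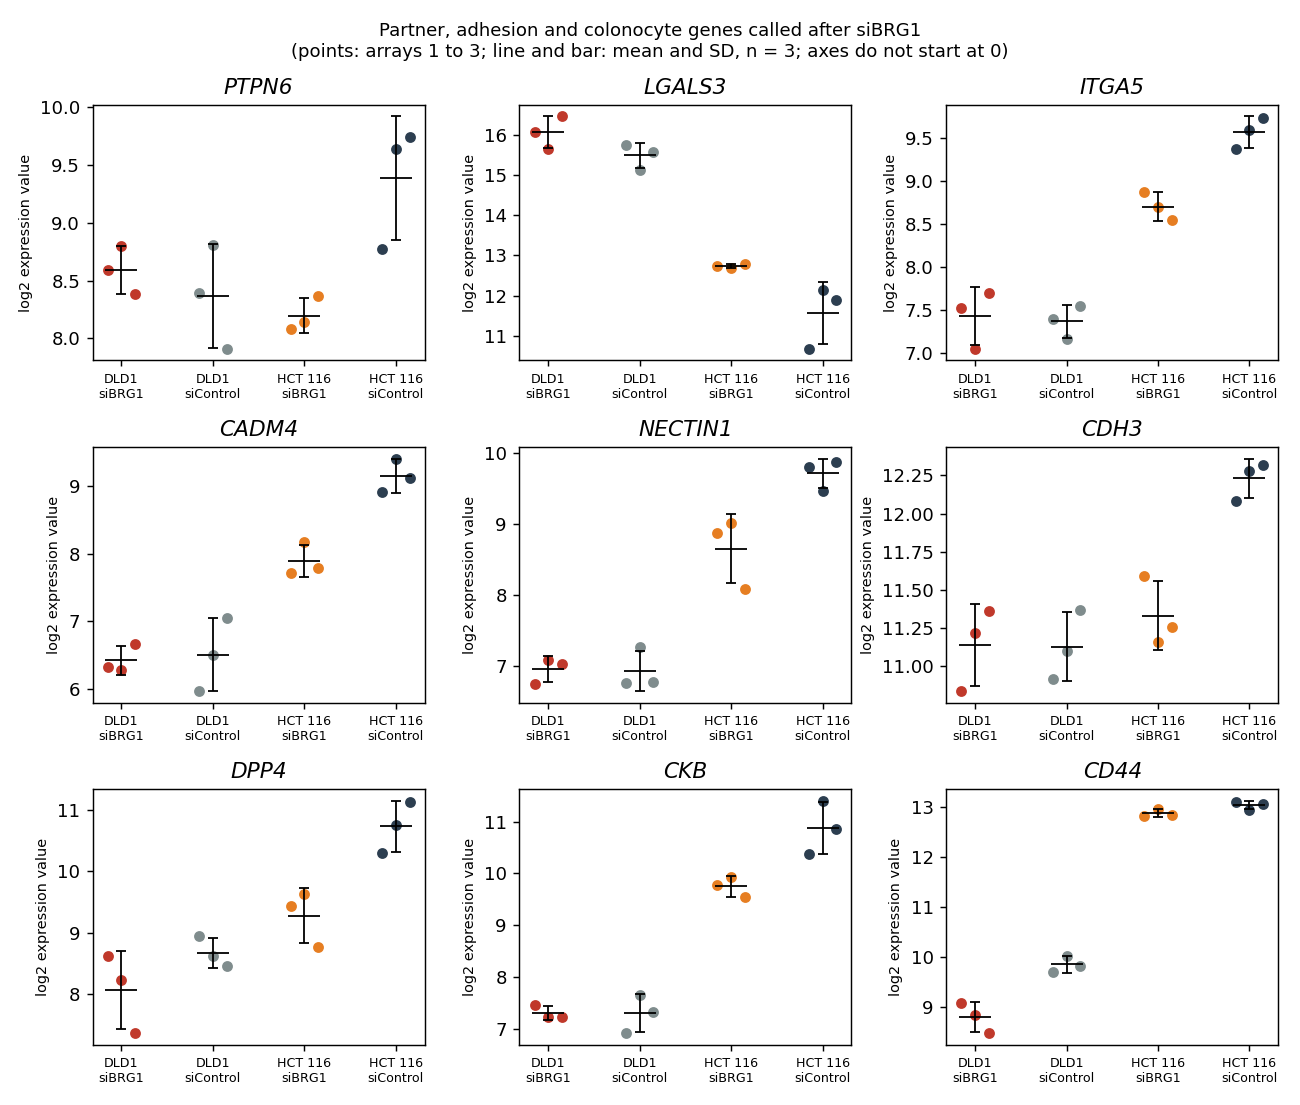
Values on each array (log2 scale, y axis, not starting at 0) by group (x axis) of 9 genes called after siBRG1 in the partner, adhesion and colonocyte lists. Points are arrays 1 to 3, and the line and bar are the mean and SD (n = 3). CD44 is lower in DLD1 siBRG1 than in DLD1 siControl, and the other 8 separate in HCT 116, LGALS3 upward. ALCAM of the adhesion list, also called upward in HCT 116, is not shown.

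Other adhesion molecules of epithelial cells were measured beside the members. Of 27, 3 fell and 1 rose in HCT 116 and 1 fell in DLD1 by limma (of all genes, 4.13% fell and 2.82% rose in HCT 116 and 0.13% fell in DLD1). The falls in HCT 116 were those of CADM4, an immunoglobulin superfamily adhesion molecule (-1.25, SE 0.25, limma adjusted p = 0.00822), NECTIN1, a nectin of adherens junctions (-1.06, SE 0.24, adjusted p = 0.0161), and CDH3, P-cadherin (-0.90, SE 0.20, adjusted p = 0.0136). CADM4 had 7.72, 8.17 and 7.78 in HCT 116 siBRG1 against 8.90, 9.40 and 9.11 in HCT 116 siControl and passed in 12 of 12 fits that left out 1 array. NECTIN1 did not pass without HCT 116 siControl replicate 3 (adjusted p = 0.0652) or HCT 116 siBRG1 replicate 3 (0.0732), nor without both HCT 116 arrays numbered 1 (0.0520). CDH3 did not pass without HCT 116 siControl replicate 2 (0.0555) or 3 (0.0554) or HCT 116 siBRG1 replicate 2 (0.0610) or 3 (0.0555). The fall in DLD1 was that of CD44, a hyaluronan receptor (-1.05, limma adjusted p = 0.0352), which passed in 3 of 12 such fits, with changes from -1.18 without DLD1 siBRG1 replicate 1 to -0.89 without DLD1 siBRG1 replicate 3 (adjusted p = 0.0210 and 0.259). It did not pass without DLD1 siControl replicate 1 (0.0929), 2 (0.0906) or 3 (0.160), DLD1 siBRG1 replicate 2 (0.0688), HCT 116 siControl replicate 2 (0.0565) or 3 (0.0542), or HCT 116 siBRG1 replicate 2 (0.0535) or 3 (0.0511), nor with only the 2 groups compared (0.166). The gene that rose in HCT 116 was ALCAM, an immunoglobulin superfamily molecule, named after its value was seen (0.81, SE 0.17, limma adjusted p = 0.00862).

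CEACAM5, CEACAM6 and CEACAM7 are made by differentiated colonocytes, and of 32 other colonocyte genes 19 lay below the median on every array. In HCT 116 2 of the 32 fell and none rose by limma (4.13% and 2.82% of all genes), the peptidase gene DPP4 (-1.46, SE 0.31, adjusted p = 0.0122) and the brain-type creatine kinase gene CKB (-1.12, SE 0.25, adjusted p = 0.0145). DPP4 did not pass without HCT 116 siControl replicate 3 (-1.25, adjusted p = 0.0584) or HCT 116 siBRG1 replicate 3 (-1.20, adjusted p = 0.0637), nor CKB without HCT 116 siControl replicate 2 (-0.86, adjusted p = 0.0725) or HCT 116 siBRG1 replicate 3 (-1.02, adjusted p = 0.0684). In DLD1 none passed, with MUC13, a membrane mucin of the apical surface, at 8.33, 6.35 and 6.50 in DLD1 siBRG1 against 10.19, 9.05 and 9.31 in DLD1 siControl (change -2.45, limma adjusted p = 0.0801). With the replicate block MUC13 was lower (blocked limma adjusted p = 0.0258). Without DLD1 siBRG1 replicate 1 its change was -3.09 (limma adjusted p = 0.0104).

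Of 28 measured genes that build or attach the GPI anchor, which CEACAM5, CEACAM6 and CEACAM7 carry, none passed after siBRG1 by limma, with 3 at an unadjusted p under 0.05 in DLD1 and 7 in HCT 116 (10.5% and 20.4% of all genes). PIGL, a deacetylase of anchor synthesis, had a change of 0.88 in HCT 116 (limma adjusted p = 0.0540). It was higher with quantile normalisation (adjusted p = 0.0391), median centring (0.0378), the filter at the median level (0.0335) and the trended prior (0.0465), and without HCT 116 siControl replicate 2 (1.18, adjusted p = 0.0156) or HCT 116 siBRG1 replicate 1 (1.04, adjusted p = 0.0452). Between the control lines 10 of the 28 were lower and 1 higher in HCT 116 siControl (14% and 13.6% of all genes), the higher one being MPPE1, named after its value was seen (0.94, limma adjusted p = 0.0223), with a median difference of -0.45 beside 0.03 for all genes.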

How the data were processed

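RNA of 12 samples was measured on single-colour Affymetrix arrays. Per the submitters' processing notes, the authors ran Affymetrix Power Tools (RMA), which gave the deposited log2 values. No version or genome build is stated there. RMA corrects background, equalises arrays and summarises the probes of a feature. The deposited values reach 18.05, above the log2 limit of 16 of a 16-bit scanner, so a further step of unstated kind is included. Groups were taken from the titles, since 4 HCT 116 samples have source names whose numbers differ from them.

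Of 21448 features, 17709 had 1 gene symbol, 0 several and 3739 none. The brightest feature was kept for each of the 17687 genes. The 5 contrasts were tested with limma 3.58.1 under R 4.3.3 (12 arrays, 4 group means, lmFit, then eBayes with 6.66 prior and 8 residual degrees of freedom), with Benjamini-Hochberg adjustment over all genes, a call at an adjusted p under 0.05, and 95% intervals unadjusted for multiple tests. The fit was tested on simulated data. The members, gene lists, motifs and tests were chosen with earlier results of these data known. Named genes were the members, SMARCA4, per list and line up to 3 called genes with the largest change (up to 2 where none was called), and the 3 genes with the highest r per member. After siBRG1, of the marker lists of other cell types, CD68 (1.29 in HCT 116, limma adjusted p = 0.0036) was called, and none of the 10 colon epithelium markers was.

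Start windows came from RefSeq (GRCh38.p14, 4 of 5 members matched) and were aligned globally with Biopython 1.88 (match 1, mismatch -1, gap opening -3, extension -1).

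Same-numbered siBRG1 and siControl arrays deviated together across genes in DLD1 (r = 0.49, 0.46 and 0.29), so the numbers were taken as pairs there, from the data and not the labels. In HCT 116 r was 0.30, 0.15 and 0.03. Alternatives were the replicate block, only the groups compared, quantile normalisation, median centring, a filter at the median level, averaged features, array weights, a robust trended prior, an adjusted p under 0.01 and each array left out.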

Additional observations from a re-analysis of the deposited data

How the results depend on the processing

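The number of members called was 0 of 5 for siBRG1 in DLD1, for siBRG1 in HCT 116, for the difference of the changes and between the knockdown lines under all alternatives run, the replicate block included, and 0 to 0 with each array left out in turn. Between the control lines it was 1 of 5, against 0 with only the groups compared, with quantile normalisation, with median centring and at an adjusted p under 0.01, and 0 to 1 with each array left out. The block gave 1 there. Above the median level no member was left to test. The difference of the changes could not be fitted with fewer groups, and a block within each line could not be fitted between lines, where a number shared over lines was used, an alternative added after seeing the data, as was leaving out both HCT 116 arrays numbered 1 (0 of 5 called).

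Of 200 member values under other settings, 195 kept their direction and side of the threshold and 1 turned, CEACAM19 in the difference of the changes with array weights (-0.044). With 1 array left out, 15 of 300 turned, none of them a called value. In HCT 116 the changes ranged from -0.48 to 0.12 for CEACAM1, -0.34 to 0.11 for CEACAM5, -0.067 to 0.21 for CEACAM6 and -0.35 to 0.0082 for CEACAM19. The difference of the changes of CEACAM19 ranged from -0.21 to 0.16, its difference between control lines from -0.27 to 0.10 and between knockdown lines from -0.23 to 0.0045. CEACAM5 ranged from -0.31 to 0.084 and CEACAM6 from -0.0049 to 0.28 between knockdown lines, and PSG4 in DLD1 from -0.029 to 0.30.

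Over all genes, DLD1 calls numbered 35, against 98 with the block, 4 with the groups compared, 63 with the trended prior, 128 with array weights, 11 at an adjusted p under 0.01 and 7 to 66 with 1 array left out. HCT 116 calls numbered 1230, against 2123 with the block, 2035 with weights, 418 at 0.01 and 618 to 1271 with 1 array left out. Calls for the difference of the changes numbered 59, against 102 with the block, 162 with weights, 16 at 0.01 and 26 to 71 with 1 array left out. The labels do not say whether same-numbered HCT 116 arrays belong together. Their deviations had r = 0.30, 0.15 and 0.03, and the block called 2123 of 17687 genes in HCT 116. Of the 28 GPI anchor genes, 2 were higher with the block, PIGL (blocked limma adjusted p = 0.0214) among them, and 1 was lower. The block changed no member's call. The cause of these shifts was not tested. CEACAM1, CEACAM5, CEACAM7 and CEACAM19 lay below the median on every array, and the part of low signal in the results was not tested.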
